A study of Mus musculus with 12 samples.

Results

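This report describes the genomic surroundings of 10 mouse genes listed under retroelement silencing and imprint protection. They were examined in a list of chromatin regions from a FLAG immunoprecipitation of cells with FLAG-tagged Zscan4. The genes are Trim28, Atf7ip, Pphln1, Zfp809, Zfp57, Dppa2, Setdb1, Morc3, Mphosph8 and Ehmt1, 10 of 21792 protein-coding genes used. They share a function, but the list was made with earlier results of these data known. A listed region was taken as near a gene when its midpoint lay in the annotated gene body or within 50 kb of either end. The study used J1, a mouse embryonic stem (ES) cell line of strain 12910la. The tagged cells carried 1000 ng of transfected plasmid with the coding sequence of Zscan4c behind a CMV promoter and a FLAG tag, were put in 500 ug/ml G418 from 24 h for 10 days, and were picked as single clones, with no number of clones per library stated in the labels. The 12 labelled samples form 12 groups of 1, with 7 from overexpressing and 5 from wild-type J1 cells. Values here come from 1 of them, the FLAG immunoprecipitation of the overexpressing cells. The list has no header that names its sample, and it was assigned to this one because its region names begin with Zscan4 and no other label names a Zscan4 immunoprecipitation. An input of the same cells is labelled beside it, and whether it served in making the list is not stated; the other 10 samples, histone marks and their inputs, were not analysed here. With 1 immunoprecipitation and no replicate, no difference between cells could be tested, depth is unknown, and all intervals cover counting error only.

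Retroelements make up a large part of the mouse genome, and in ES cells they are kept silent by histone H3 lysine 9 methylation laid down at their own sequence. KRAB zinc finger proteins such as Zfp809 and Zfp57 read DNA and recruit the scaffold protein Trim28, which brings in the methyltransferase Setdb1 and its partner Atf7ip. The HUSH complex, with Mphosph8 and Pphln1 among its subunits, spreads the same mark, and Morc3 is a GHKL ATPase that acts in the silencing of endogenous retroviruses. Zfp57 and Trim28 also protect the methylated allele of imprinted loci after fertilisation, and Dppa2 acts with Dppa4 at genes of the 2-cell stage, the stage at which Zscan4 itself is transcribed.

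Of the 10 genes, 6 had a FLAG-Zscan4 region within 50 kb (60.0%, 95% Wilson interval 31.3 to 83.2%), and the background share over all protein-coding genes was 26.3%. The 6 were Trim28, Atf7ip, Pphln1, Zfp809, Zfp57 and Dppa2, and Setdb1, Morc3, Mphosph8 and Ehmt1 had none. All 6 also had a region within 10 kb, where the background was 11.8%, and 2 had one in the gene body, Atf7ip and Dppa2, where it was 7.7%. Within 100 kb the count was again 6 of 10, and the background was 40.3%. Among the 13803 protein-coding genes whose span lay between those of the shortest and the longest of the 10 genes (6.88 and 129 kb), the background was 28.2% within 50 kb, 12.3% within 10 kb and 7.69% in the body. The list of 10 was made with earlier results of these data known, so its counts and the interval are a description and carry no test.

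Together the 6 genes had 7 different regions, because Pphln1 had 2 and the other 5 had 1 each. Over the summed windows of all 10 genes this came to 4.75 regions per Mb (95% exact Poisson interval 1.91 to 9.78), beside 1.85 per Mb on the nuclear chromosomes as a whole (1.80 to 1.90). At the rates of their own chromosomes, the 10 windows would have held 2.62 regions. These windows belong to genes listed with earlier results of these data known, so the rate and its interval carry no test against the other rates. The windows of all protein-coding genes, many of which overlap, held 2.43 regions per Mb. The region closest to the 50 kb limit from inside lay at 34.4 kb, the second region of Pphln1, and those next outside the limit lay at 63.1 kb from Dppa2 and 64.9 kb from Trim28.

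**Figure D1:**
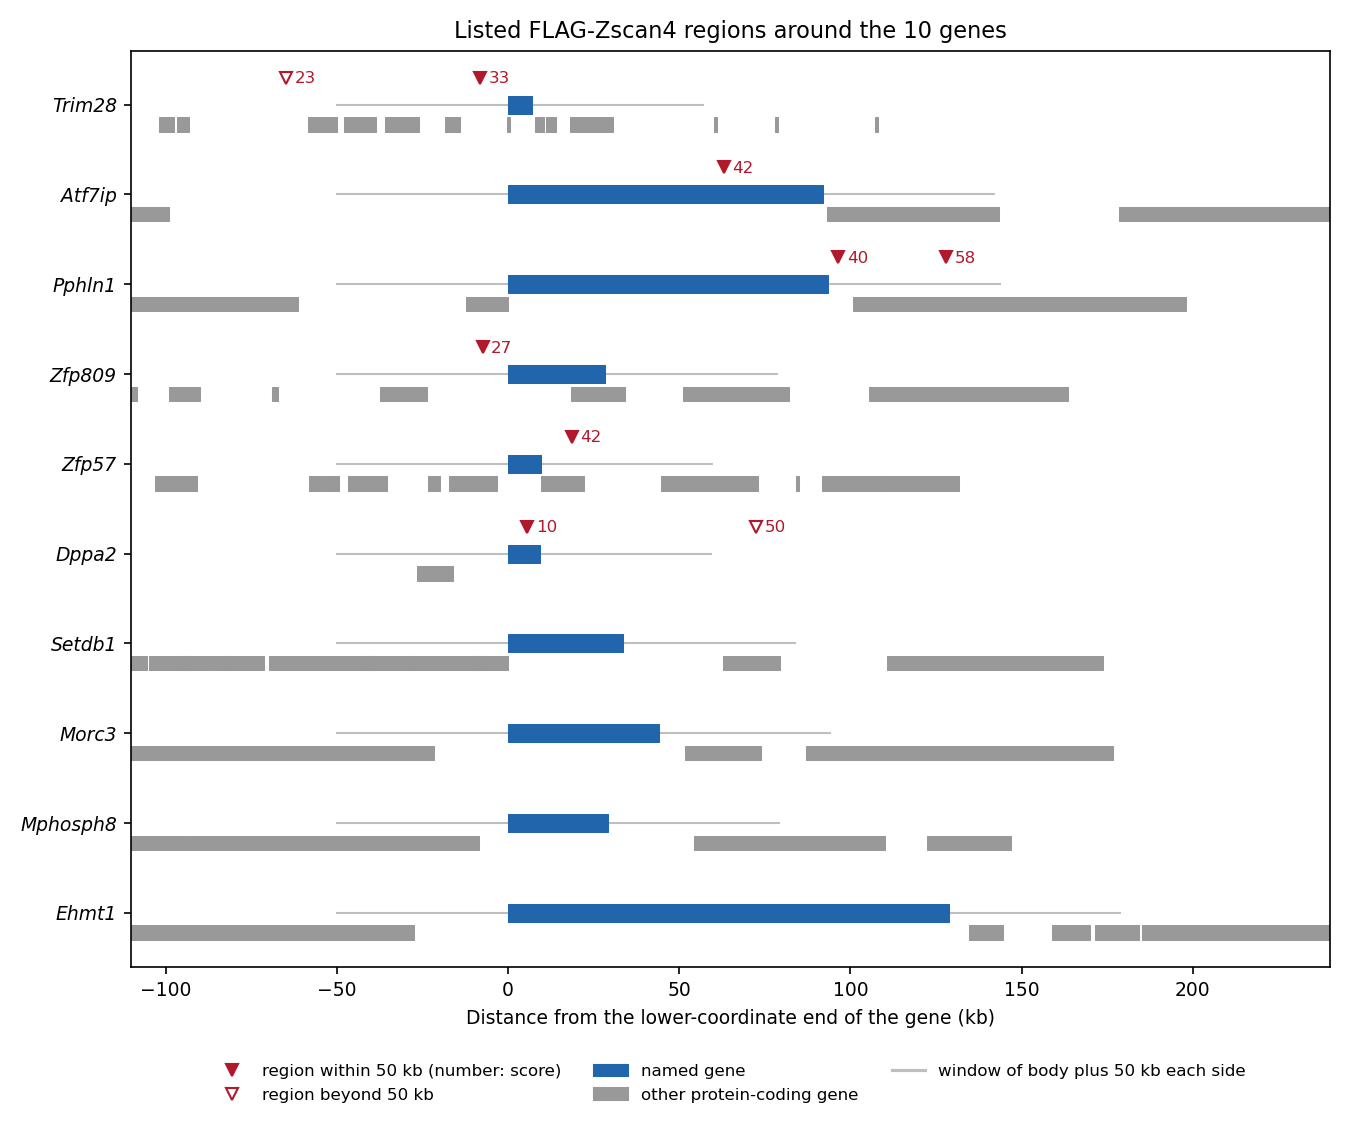
Each row shows 1 of the 10 genes (blue) on an axis of distance in kb from its lower-coordinate end, with other protein-coding genes in grey below it, the window of the gene body plus 50 kb on either side as a thin line, and listed FLAG-Zscan4 regions as triangles with their score, a whole number the authors gave to each region. Filled triangles mark the 7 regions within 50 kb, which belong to the upper 6 genes, and the lower 4 genes have none.

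No region lay at a start site of the 9 genes for which one was given, and few in the whole list lay at any. The reference promoter table gave 13 start sites for 9 of the 10 genes (none for Dppa2, the distance of whose region from its start was therefore not measured), and 0 of the 13 lay within 1 kb of a region. In the whole list, 121 of 4973 regions (2.43%) lay within 1 kb of a start site of that table. This share is counted over regions and not over start sites. With so low a share, a count of 0 at these few genes does not set them apart. Among the 9 genes with a listed start site, the shortest distance from one to a region midpoint was 7.49 kb, at Zfp809, and the next was 8.17 kb, at Trim28. Both regions lay upstream of the gene, so the 250 bases before the start site of these 2 genes are shown here from RefSeq (GRCm38.p6, the assembly whose primary chromosomes are those of mm10), both on the plus strand, chr9:22225453-22225702 for Zfp809 and chr7:13023902-13024151 for Trim28, with capitals on every run that holds 4 CA units in a row.
Zfp809: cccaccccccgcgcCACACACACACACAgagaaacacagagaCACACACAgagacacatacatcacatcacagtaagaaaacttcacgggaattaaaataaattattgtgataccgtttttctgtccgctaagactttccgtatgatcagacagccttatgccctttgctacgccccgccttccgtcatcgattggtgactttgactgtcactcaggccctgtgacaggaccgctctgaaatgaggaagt
Trim28: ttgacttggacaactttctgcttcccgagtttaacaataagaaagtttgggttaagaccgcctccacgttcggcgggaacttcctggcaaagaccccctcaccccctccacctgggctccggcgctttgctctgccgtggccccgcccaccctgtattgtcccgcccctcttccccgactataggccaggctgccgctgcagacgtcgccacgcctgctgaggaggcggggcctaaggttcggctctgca
The Zfp809 sequence held CA repeats near its 5′ end, in 2 separate runs of capitals, and the Trim28 sequence had none. Windows of 300 bases, from 250 before to 50 after a start site, were searched on both strands for 4 CA units in a row and for TGCACAC, a site known for Zscan4 from binding assays in vitro. The 2 patterns can overlap in a longer CA run. The CA pattern was found in 2 of the 13 windows of the 9 genes, beside 4.09% of all 32851 windows. Both were windows of Zfp809, which overlap almost fully and show the same repeats. TGCACAC was found in 0 of the 13 windows, beside 4.40% of all windows. The region near Zfp809 lies outside these windows, and sequence under the 7 regions was not analysed here.

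Trim28 (chromosome 7, 13024152 to 13031032) encodes the scaffold that KRAB zinc finger proteins recruit. Its region lay at chr7:13015869-13016102, was 234 bp wide and had a score of 33. The score is a whole number that the authors gave to each region, and its scale is not stated. This score equalled the median of the list, 33, and placed the region at joint rank 2458 of 4973. The midpoint was 8.17 kb upstream of Trim28 and in no gene body. It was nearer to Zbtb45, a zinc finger and BTB domain gene, at 5.94 kb, and to the predicted coding gene Gm31649, which overlaps the start of Trim28, at 7.72 kb. In all, 9 protein-coding genes lay within 50 kb of this midpoint, the most of any of the 7 regions, among them Chmp2a, Slc27a5, Ube2m, Mzf1, Zfp446 and Zfp324. The region is therefore shared among neighbours in a gene-dense stretch and was not closest to Trim28.

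Atf7ip (chromosome 6, 136518789 to 136610850) encodes the partner that stabilises Setdb1 in the nucleus. Its region was inside the gene body, at chr6:136581739-136582016, with a width of 278 bp, a score of 42 and joint rank 1715. The midpoint lay 63.0 kb downstream of the start site, in the distal part of a gene that spans 92.1 kb. The nearest other protein-coding gene was Plbd1, at 30.2 kb, and the nearest gene of any class was the long non-coding RNA gene LOC108169175 at 26.3 kb. Exons and introns were not analysed here. The next listed region on the chromosome lay 231 kb away, and 8 regions, this one included, lay within 1 Mb of Atf7ip.

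Zfp809 (chromosome 9, 22225667 to 22254117) encodes a KRAB zinc finger protein that recognises the primer binding site of murine leukaemia virus and related endogenous retroviruses. Its region at chr9:22218098-22218337 was 240 bp wide with a score of 27 and joint rank 3059, below the median of the list. The midpoint lay 7.45 kb upstream of the gene, and Zfp809 was the nearest protein-coding gene. The long non-coding RNA gene 1810064F22Rik was nearer, at 4.36 kb. The zinc finger genes Zfp872 and Zfp599 lay at 16.1 kb and 25.9 kb, and the annotated bodies of Zfp809 and Zfp599 overlap.

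Zfp57 (chromosome 17, 37001163 to 37010729) encodes the KRAB zinc finger protein that binds methylated imprinting control regions. Its region at chr17:37019549-37020025 was 477 bp wide with a score of 42 and joint rank 1715. The midpoint lay 9.06 kb downstream of Zfp57 but inside the body of Mog, the myelin oligodendrocyte glycoprotein gene, whose annotated body begins at 37010740. It was 3.61 kb from the start site of Mog and 16.1 kb from the nearest of the 3 start sites of Zfp57. H2-M5, a class I major histocompatibility gene, Gabbr1 and 2410137M14Rik also lay within 50 kb. This was the most isolated of the 7 regions, with the next listed region at 972 kb.

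Pphln1 (chromosome 15, 93398345 to 93491913) encodes periphilin, a HUSH subunit that binds RNA, and was the only one of the 10 genes with 2 regions within 50 kb (background 6.64%). The first, at chr15:93494417-93495105, was 689 bp wide with a score of 40 and joint rank 1952, and lay 2.85 kb beyond the end of the gene. The second, at chr15:93526083-93526521, was 439 bp wide with a score of 58 and joint rank 1081, and lay 34.4 kb beyond it. Both regions were far from the start sites of Pphln1, the first by 96.3 kb and the second by 128 kb. The first lay between Pphln1 and Prickle1, a planar cell polarity gene, whose body was 4.35 kb away. The second lay inside Prickle1, at 6.78 kb from a start site of that gene, and Pphln1 was the other protein-coding gene within reach. The 2 regions were 31.5 kb apart.

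Dppa2 (chromosome 16, 48310274 to 48319513) encodes a SAP domain protein of early embryos and ES cells that acts upstream of Dux and Zscan4 in ES cells. Its region was inside the gene body, at chr16:48315769-48316090, with a width of 322 bp and a score of 10, the lowest in the list, held by 130 regions. The same region lay 21.6 kb from Dppa4, the partner gene, and counts for both, with no further protein-coding gene within 50 kb. The next region, 66.7 kb away at chr16:48382339-48382960, had a higher score, 50, and lay at 63.1 kb from Dppa2 and 48.6 kb from Morc1. The Dppa2 region thus lay inside the gene and had the minimum score.

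Scores of the 7 regions ran from the lowest of the list, at Dppa2, to 58, and 78.3% of the list scored 58 or less. Their scores had a median of 40 and a range of 10 to 58, beside a median of 33 and a range of 10 to 7195 over all 4973 regions. Of the 7, 4 scored above the median of the list and 1 reached its upper quartile of 55 (the Pphln1 region inside Prickle1). A score of 100 was reached by 0 of the 7 and by 549 of the 4973 listed regions. Whether so few scores differ from those of the list was not tested. Counting only regions at or above the median score, 4 of the 10 genes had one within 50 kb (background 14%), and with regions at or above the upper quartile 1 had one, Pphln1 (background 6.71%). Their widths had a median of 322 bp and a range of 234 to 689 bp, beside a median of 310 bp and a range of 219 to 4244 bp in the list. None of the 7 had another region within 10 kb.

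**Figure D2:**
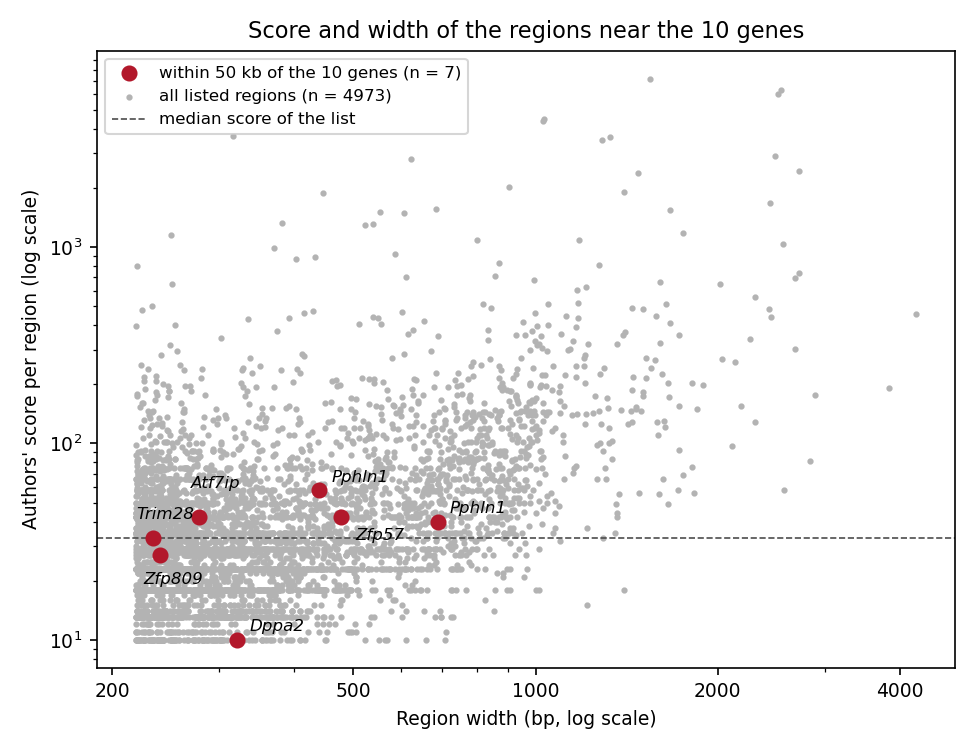
Each point is a listed region, with its width in bp on the x axis and the authors' score on the y axis, both on log scales; red points are the 7 regions within 50 kb of the 10 genes, labelled by gene, and grey points are all 4973 regions. The red points lie between scores of 10 and 58 and widths of 234 and 689 bp, and the dashed line marks the median score of 33.

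Sharing with neighbours was found at all 7 regions. Each of the 7 regions lay within 50 kb of at least 2 protein-coding genes, with a median of 2 and a range of 2 to 9. Among the 3795 listed regions with any protein-coding gene within 50 kb, the median was also 2 and 54.3% were shared by 2 or more genes. The 7 were reached from chosen genes and the 3795 were not, so the 2 sets are not alike. The gene of interest was the nearest protein-coding gene for 4 of the 7 regions, those at Atf7ip, Zfp809 and Dppa2 and the first region of Pphln1. For the other 3, Zbtb45, Mog and Prickle1 were nearer, and Mog and Prickle1 held the midpoint in their bodies. By this stricter rule 4 of the 10 genes had a region, and the background was 13.5% of protein-coding genes.

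The 4 genes without a region within 50 kb include both histone methyltransferases of the set. Morc3 (chromosome 16, 93832121 to 93876077) had its nearest region at 117 kb, a 704 bp region with a score of 70. Mphosph8 (chromosome 14, 56668235 to 56697430), which encodes the HUSH subunit with the chromodomain that binds methylated H3 lysine 9, had its nearest at 212 kb with a score of 32. Setdb1 (chromosome 3, 95323525 to 95357202), the methyltransferase recruited by Trim28, had its nearest at 239 kb with a score of 66. Of all protein-coding genes, 44.1% had a region at least as close as that of Morc3, 60.6% at least as close as that of Mphosph8 and 64.0% at least as close as that of Setdb1, so these 3 distances were in the middle range.

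Ehmt1 (chromosome 2, 24790769 to 24919643) encodes GLP, the partner of G9a in H3 lysine 9 dimethylation, and is the longest of the 10 genes. Its nearest region lay 987 kb away, with a score of 27, and 94.8% of protein-coding genes had a closer or equally close one. Within 1 Mb of Ehmt1 there was 1 region, or 0.470 per Mb, beside 1.75 per Mb on chromosome 2. Around the other 9 genes the same window held between 2 regions (Pphln1 and Zfp57) and 8 regions (Atf7ip, 3.82 per Mb beside 1.65 on chromosome 6). The list can hold no site below the threshold of its makers, so the absence of a region from a window does not show that Zscan4 was absent there.

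**Figure D3:**
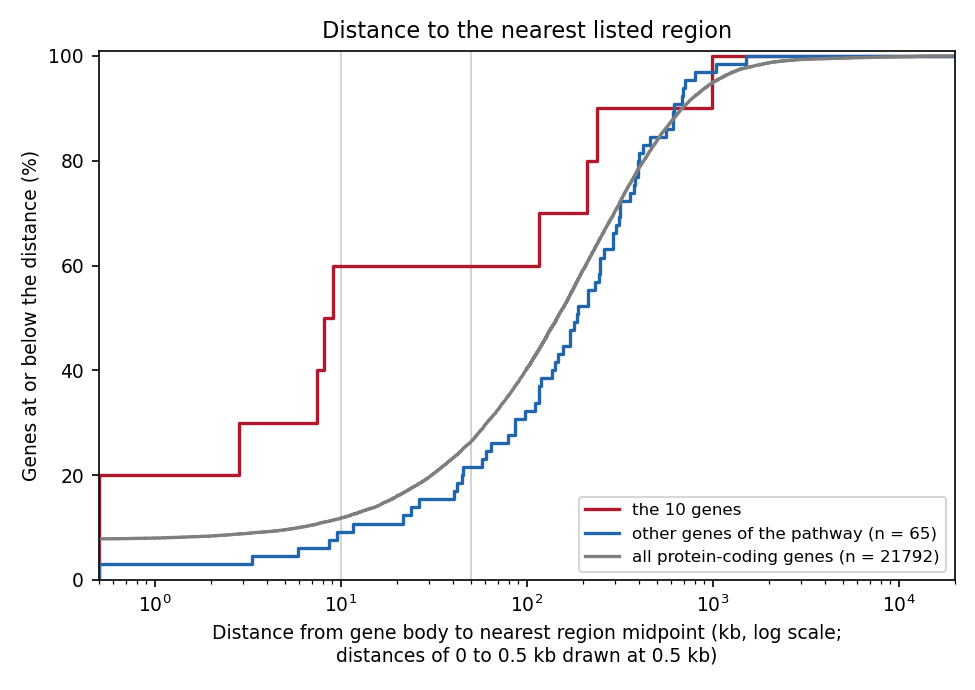
The x axis gives the distance in kb from a gene body to the nearest region midpoint on a log scale, with distances of 0 to 0.5 kb drawn at 0.5 kb, and the y axis the percentage of genes at or below that distance, for the 10 genes (red), the 65 other genes of the pathway (blue) and all 21792 protein-coding genes (grey). Grey vertical lines mark 10 and 50 kb, between which the red line stays level at 60.0%.

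The distance to the nearest region had a median of 8.61 kb over the 10 genes, 185 kb over 65 other genes of the same pathways and 146 kb over all protein-coding genes. The first median hides a gap, with 6 genes at 0 to 9.06 kb and 4 at 117 to 987 kb. Because the 10 genes were listed with earlier results of these data known, these medians are a description and carry no test. The 65 genes were listed by role, and 14 of them (21.5%) had a region within 50 kb, below the background of 26.3%. Within 10 kb there were 6 (background 11.8%) and in the body 2 (background 7.7%). The shares of the 65 genes were below the background in all 3 windows, but these windows are nested and so are not separate observations. Neither the difference from the background nor that between the 2 lists was tested. The 14 genes had 22 different regions, with a median score of 29 and a range of 10 to 98.

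**Figure D4:**
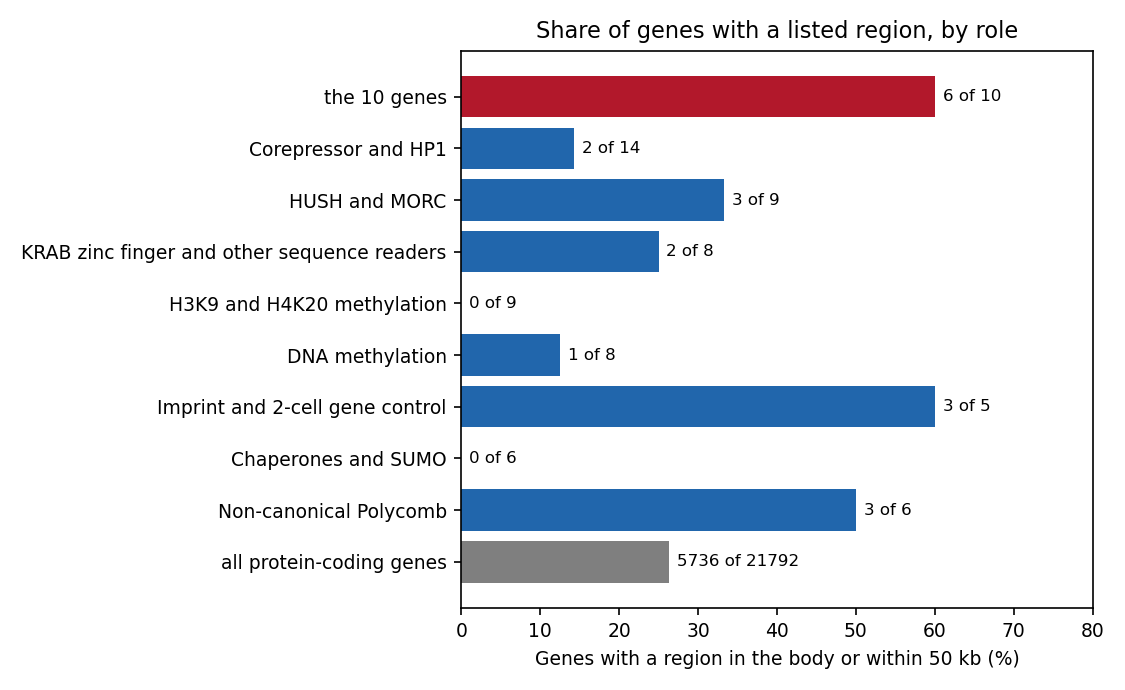
Bars give the percentage of genes with a FLAG-Zscan4 region in the body or within 50 kb, with the count beside each bar, for the 10 genes (red), 8 roles among the 65 other genes (blue) and all protein-coding genes (grey). The roles hold 5 to 14 genes each, and 2 of them, H3K9 and H4K20 methylation and chaperones and SUMO, have 0 genes with a region.

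Of 9 further genes for histone lysine methylation, which include Ehmt2, the partner of Ehmt1, Suv39h1, Suv39h2 and Setdb2, 0 had a region within 50 kb (background 26.3%) or within 100 kb (background 40.3%), and the shortest distance was 142 kb. Whether so small a list differs from the background was not tested. The 6 genes for histone chaperones and SUMO conjugation, among them Chaf1a and Sumo2, also had 0 within 50 kb. The genes without a region are named here as examples, chosen after their values were seen. Of 8 DNA methylation genes, 1 had a region (12.5%), Dnmt3l, the cofactor of the de novo methyltransferases, at 40.9 kb with a score of 29. Ehmt1 and Setdb1 were likewise without a region within 50 kb, a description over few genes.

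Among 9 further HUSH and MORC genes, 3 had a region within 50 kb (33.3%), near the background of 26.3%. Morc1, a germ line gene for transposon silencing, had 1 in its body (score 18) and the one at 48.6 kb that lies toward Dppa2 (score 50). Daxx, the histone H3.3 chaperone, had one at 9.56 kb (score 40), which lay in the body of Smim40, and one at 48.2 kb (score 22) in the body of Vps52. The third was Tasor, the scaffold subunit of HUSH, named here after its value was seen, with a region at 26.3 kb (score 23) that lay 1.31 kb from Ccdc66. Of the HUSH core, Pphln1 therefore had the closest region (2.85 kb), Tasor came next and Mphosph8 was at 212 kb.

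Of 14 corepressor and heterochromatin protein 1 genes, 2 had a region within 50 kb (14.3%, background 26.3%). Cbx3, which encodes HP1 gamma, had one at 23.8 kb (score 69), and the deacetylase gene Hdac1 had 2, at 11.6 kb (score 42, in the body of Lck) and 37.9 kb (score 38). Of 8 genes for sequence readers, 2 had a region (25%), a share close to the same background. Zfp600 had 3 between 5.88 and 7.25 kb, the highest with a score of 98, and Zfp42, also called Rex1, had 2 at 45.6 and 46.5 kb (scores 43 and 23). Zfp600 lies in the zinc finger gene cluster of chromosome 4. Zfp445, which like Zfp57 protects imprints and is also named after its value was seen, had none.

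Among 5 genes for imprint and 2-cell gene control, 3 had a region within 50 kb (background 26.3%), a count over few genes with no test. Dppa3, which protects the maternal genome from demethylation in the zygote, had one at 3.34 kb (score 18) and one at 10.8 kb (score 23). Arid4a, a regulator of imprinting in the mouse, had 2 with a score of 23 each, at 8.65 and 11.4 kb, and Dppa4 shared that of Dppa2. Of 6 non-canonical Polycomb genes 3 had a region (same background), with that of Rnf2 in the gene body (score 14) and those of Pcgf6 (score 31) and E2f6 (score 29) at 44.96 and 42.2 kb. The scores of these regions were at or below the median of the list.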

How the data were processed

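The data were 1 list of regions from an anti-FLAG immunoprecipitation, with about 250 bp fragments and 5 ng of DNA per library, per the labels' protocols. Cutadapt, Bowtie2, MACS2 and deepTools, with mm10 as the build, are named in the submitters' processing notes, without versions or thresholds. The score was deposited by the authors as 1 whole number per region, on an unstated scale. Region starts and ends, as deposited, are in bp with the first base as 0, and are printed counted from 1. The list gives no read counts, and 6 of its regions lie on the mitochondrial chromosome. Whether each listed region is a site bound by Zscan4 was not tested.

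Genes came from RefSeq (assembly GRCm38.p6); 357 genes on no used chromosome, or on autosomes or the X chromosome starting below 3 Mb, were left out. Promoter windows (RefSeq) gave strand and start sites. Distances run from the region midpoint to the gene body. A chromosome's size ran between its outermost genes or regions. Python 3.11.15, pandas 2.3.3 and scipy 1.17.1 were used, and the distance counts were tested on simulated regions.

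The genes, the pathway list and the alternatives were chosen with earlier results of these data known. All 10 genes are named; for each region the nearest other gene and any protein-coding gene holding it; and of the pathway list, genes with a region within 10 kb and up to 2 per role by score, besides examples marked in the text as chosen after their values were seen. Alternatives were flanks of 10 and 100 kb, overlap of 1 bp, only the 2510 or 1252 regions of highest score, merging within 1 kb and the nearest gene alone.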

Additional observations from a re-analysis of the deposited data

How the results depend on the processing

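Of the 22 alternatives tried, 16 left the value within 1.5 times (or inside the binomial interval of a median) and 6 moved it. With the 2510 regions of highest score (33 or more), 4 of the 10 genes kept a region within 50 kb (Trim28, Atf7ip, Pphln1 and Zfp57). So did 6 of the 65 other genes, and the background within 50 kb was 14% of protein-coding genes. In the body, 1 of the 10 genes had such a region (Atf7ip), and the background in the body at this score was not counted. With the 1252 highest (55 or more), 1 region and 1 gene were left, the second region of Pphln1, with a background of 6.71%. With regions of any score, 6 of the 65 other genes had one within 10 kb (background 11.8%). Within 10 kb, a neighbour range chosen after seeing the data, 3 regions were shared with another protein-coding gene. The share of the whole list at this range was not counted, so the 3 cannot be set against it. No paired analysis was possible because each group has 1 sample. Depth is unknown, so how many weaker sites the list misses was not tested.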
